A study of Mus musculus with 12 samples.

Results

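Inguinal white adipose tissue (iWAT), a subcutaneous fat depot of the mouse, was compared between cold and ambient housing in bBMCtr mice by bulk mRNA sequencing. The comparison used 6 of the 12 libraries of the series, namely the 3 labelled cold bBMCtr and the 3 labelled ambient bBMCtr. Genes were taken when their FPKM was above 0.1 in at least 50% of the 12 libraries, and only autosomal genes were compared, which left 14904 of the 24091 genes counted. bBMCtr mice carry floxed Bmal1 alleles on a C57BL/6 background without Cre, and all 4 groups of the series share the floxed alleles. bBMKO littermates add a Prx1-Cre transgene, whose promoter is active in limb mesenchyme and in progenitors of the inguinal depot. The sample records place ambient animals at 22 °C, where the methods give 21 °C, and cold animals at 10 °C for 2 weeks. Legends give an age of 6 weeks and the methods 10 to 12 weeks for cold animals, so the age of these animals is not certain. The labels number the replicates, and the sample descriptions give each library a further number, lower in all cold than in all ambient libraries. What these numbers stand for is not stated. The labels say nothing else on the origin of each animal, so the p-values measure the spread between these libraries.

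In cold, sympathetic nerves release noradrenaline, which acts through beta-adrenergic receptors and cAMP to start lipolysis in fat cells. In subcutaneous depots some fat cells then take on a beige state, with more mitochondria and with uncoupling protein 1 (Ucp1), which lets the respiratory chain give off heat. The inguinal depot of the mouse also holds the fourth mammary fat pad and a lymph node, and lies against skeletal muscle, so bulk RNA of this tissue can hold transcripts of mammary ducts, lymphocytes and muscle fibres.

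The 6 libraries held 17887795 to 20011515 counts. Arntl, the gene of Bmal1, was at 10.7, 7.58 and 3.77 CPM (CPM divide the counts of a gene by the library size after TMM scaling) in ambient bBMCtr and at 8.25, 7.93 and 6.14 CPM in cold bBMCtr, and the counts span exons outside the floxed part, so they check no label. Xist, transcribed from an inactive X chromosome, lay between 1347 and 1519 CPM in the ambient libraries and between 0.751 and 1.21 CPM in the cold libraries. Ddx3y, a gene of the Y chromosome, was at 0 to 0.0483 CPM in the ambient and 97.3 to 123 CPM in the cold libraries. Legends of the paper give male mice for a heatmap of mitochondrial genes from this sequencing. For a heatmap of fatty acid genes, ambient and cold, they give female mice. By Xist and Ddx3y every ambient library had the expression of a female and every cold library that of a male, as neither legend states. Temperature, sex and the mammary markers described below therefore change together over these 6 libraries and cannot be told apart. Age may differ between the groups as well, since the methods give 10 to 12 weeks for cold animals only. A cold effect, or a gene higher or lower in the cold, names this joint difference, with any difference in age. The 12 adipocyte identity genes summed to between 18538 and 24503 CPM in the ambient and to between 30120 and 37407 CPM in the cold libraries, so fat cell transcripts were abundant in all 6. Fewer cells of a type and less RNA per cell cannot be told apart in bulk tissue.

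Of the 14904 autosomal genes, 516 were higher in the cold (3.46% of those tested) and 1678 were lower (11.3%) by edgeR's quasi-likelihood test. A call required more than a 1.5-fold difference, p below 0.05 before adjustment and p below 0.25 after Benjamini-Hochberg adjustment. The lower genes also fell further, with 584 lower and 45 higher by more than 4-fold. The groups did not overlap in 4793 genes (32.2%), of which 2057 were called. The median log2 difference over all autosomal genes was 0.00, and 7500 genes had a positive and 7404 a negative difference. The higher count was 806 without ambient replicate 1.

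**Figure D1:**
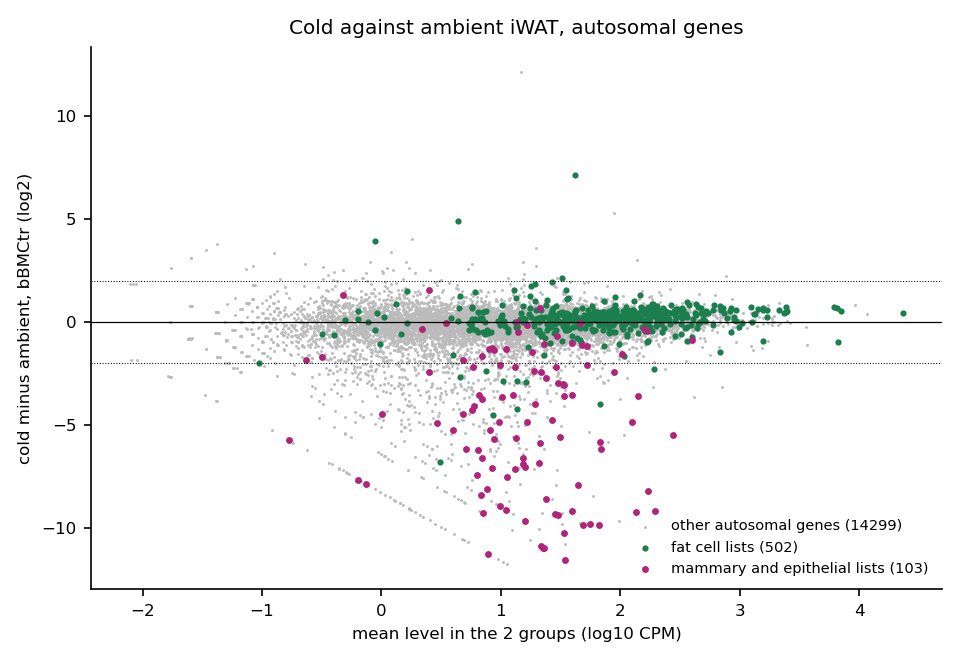
Log2 difference of cold minus ambient bBMCtr libraries against the mean level (log10 CPM) for each autosomal gene, with mammary and epithelial list genes in magenta, fat cell list genes in green and dotted lines at 4-fold. The 103 mammary and epithelial genes reach far below the lower line, while most of the 502 fat cell list genes lie between the lines.

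Genes of mammary and other epithelia made up a separate class. On the 4 lists of luminal cells, basal cells, milk proteins and epithelial junctions, 92 of 103 tested genes were lower in the cold and 2 were higher, with a median log2 difference of -4.45. The higher ones were Krt79, a keratin of skin glands, and Lao1, an amino acid oxidase of milk, which stayed under 1 CPM in every library, overlapped between groups and was not called without ambient replicate 1, ambient replicate 3, cold replicate 1 or cold replicate 3. With the 15 genes of at most 3 counts in all cold libraries set at a floor of 3 counts over the group, the median was -4.43. Of the 103 genes, 76 were lower by more than 4-fold. By list, all 31 luminal genes, 21 of 23 basal genes, 7 of 9 milk protein genes and 34 of 41 junction and keratin genes were lower. On the floor the median of the junction list moved from -3.72 to -2.97, and those of the others did not move. The luminal list summed to between 1862 and 3600 CPM in the ambient and to between 144 and 167 CPM in the cold libraries.

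Epcam, an adhesion molecule of epithelial cells, was at 87.9, 129 and 187 CPM in the ambient and at 1.71, 2.3 and 1.65 CPM in the cold libraries (log2 difference -6.15 ± 0.38 (SE), adjusted p = 6.00e-06). Krt18, a keratin of simple and luminal epithelium, was at 205, 253 and 354 CPM against 0.302, 0.469 and 0.587 CPM (log2 difference -9.21 ± 0.51 (SE), adjusted p = 2.94e-06). Its partner Krt8 was at 102, 91.2 and 201 CPM against 0.0503, 0 and 0.373 CPM. Each ambient library thus held these luminal transcripts at levels far above each cold library. Krt14, a keratin of basal and myoepithelial cells, was at 27.8, 45.9 and 62.5 CPM in the ambient libraries and had 1 count in the 3 cold libraries together, a ratio of 2693 with an exact 95% interval of 483 to 106408. Krt5, the partner of Krt14, had 4055 counts against 1 (ratio 4079, interval 732 to 161162). Elf5, a transcription factor of luminal alveolar progenitors, had 2704 counts against 1 (ratio 2720, interval 488 to 107481). The milk protein gene Csn3 had 3944 counts in the ambient and 3 in the cold libraries (ratio 1323, interval 452 to 6416). These intervals cover counting error only. The defining basal and luminal markers were thus at or near 0 in the cold libraries, and the levels of Krt14 and Elf5 differed 2.24-fold and 2.43-fold among the ambient libraries.

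**Figure D2:**
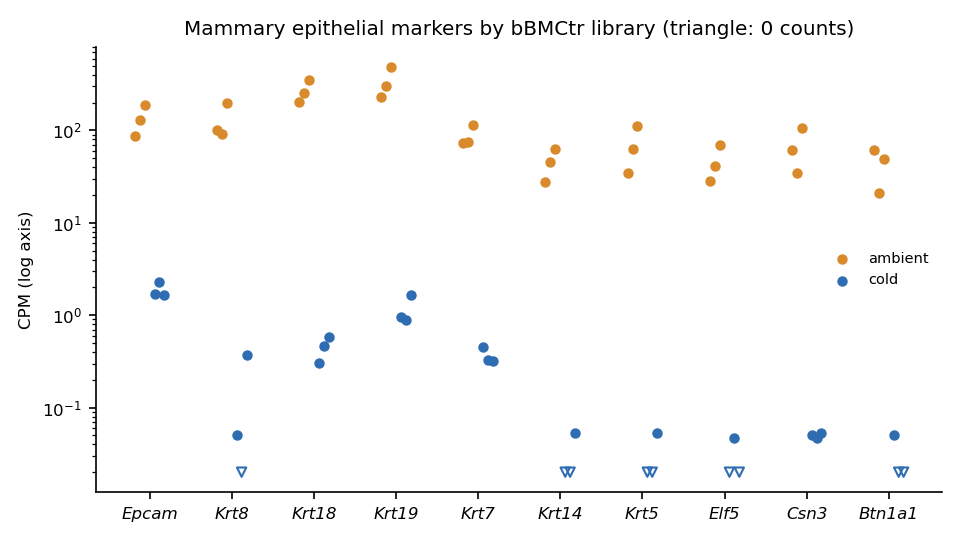
Levels of 10 mammary epithelial genes in each bBMCtr library (CPM on a log axis, orange for ambient and blue for cold, open triangles for libraries with 0 counts). The ambient points lie between 20.9 and 483 CPM and the cold points at or below 2.30 CPM.

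Deep falls were also found outside the epithelial lists. Among lower genes on none of these lists, the 12 of smallest p, which are not the 12 of largest fall, were Mlph, Papln, Arg2, Slc35f3, Kctd4, Plet1, Atp6v1b1, Aqp5, Prom2, Foxi1, Clca3a2 and Scnn1b. Aqp5, a water channel of secretory epithelia, was at 75.4, 62.6 and 153 CPM in the ambient and 0.101, 0.141 and 0.0534 CPM in the cold libraries (log2 difference -9.83 ± 0.53 (SE), adjusted p = 2.94e-06). Foxi1, a transcription factor of proton-secreting epithelial cells, had 1188 counts against 2 (ratio 598, interval 165 to 4940). Atp6v1b1, a proton pump subunit of such cells, was at 47.5, 67.8 and 78.7 CPM against 0.0503, 0.0469 and 0.107 CPM (log2 difference -9.79 ± 0.50 (SE), adjusted p = 2.62e-06). Aqp5 and Atp6v1b1 had few cold counts, and their SEs, taken from the test statistic, can understate counting error. Papln, a matrix protein and the one of the 12 with the smallest difference, went from 75, 71.6 and 78.1 CPM to 9.16, 9.43 and 10.8 CPM (log2 difference -2.93 ± 0.11 (SE), adjusted p = 5.23e-07). In each of the 12 the lowest ambient library was above the highest cold library, which the rule for naming them required. Of the 13966 tested genes on no list, 476 were lower by more than 4-fold. How many of these come from epithelium was not tested.

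Lists of fat cell genes held calls in both directions. Beside the counts of each list stand the shares over all autosomal genes, 3.46% higher and 11.3% lower. Of the 12 adipocyte identity genes, 5 were higher and none lower (median log2 difference 0.56). Plin1, the protein that coats the fat droplet, was at 750.5, 1000.3 and 1044 CPM in the ambient and 1576, 1442 and 1626 CPM in the cold libraries (log2 difference 0.73 ± 0.14 (SE), adjusted p = 0.00621). Lipe, hormone-sensitive lipase, was at 1043, 1215 and 1309 CPM against 1975, 1722 and 2065 CPM (log2 difference 0.69 ± 0.14 (SE), adjusted p = 0.00648). The groups were apart for both genes, and ambient replicate 1 was the lowest library in each. The others called were Lpl, Fabp4 and Lep, of which Lpl and Fabp4 were no longer called without ambient replicate 1. Lep, the hormone leptin, was at 244, 533 and 532 CPM against 795, 685 and 862 CPM (log2 difference 0.84 ± 0.36 (SE), adjusted p = 0.166), and was not called without ambient replicate 1 or without any single cold library. Adipoq, the hormone adiponectin, was at 1083, 1877 and 1685 CPM against 1915, 1641 and 1919 CPM, with overlapping groups, and was not called (log2 difference 0.24 ± 0.21 (SE), adjusted p = 0.545). The list's higher count was 2 without ambient replicate 1, 9 without ambient replicate 2 and 8 without cold replicate 2.

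Of the 33 tested genes of heat production and beige fat, 12 were higher in the cold and none lower, with a median log2 difference of 0.67. Ppargc1a, a coactivator of mitochondrial genes, was at 6.65, 10.1 and 7.86 CPM in the ambient and 18.3, 17.5 and 20.4 CPM in the cold libraries (log2 difference 1.19 ± 0.18 (SE), adjusted p = 0.00133). Prdm16, a transcriptional regulator of beige and brown fat identity, was at 21.1, 20.4 and 21.6 CPM against 35.7, 31.1 and 33.8 CPM (log2 difference 0.67 ± 0.10 (SE), adjusted p = 0.00139). The spread within each group was small beside the difference for both regulators. Ucp1 was at 1.33, 0.0965 and 0.323 CPM in the ambient and at 7.85, 13.7 and 229 CPM in the cold libraries (log2 difference 7.14 ± 2.05 (SE), adjusted p = 0.041). Its cold replicate 3 was 16.7-fold above the next cold library, and without it the log2 difference was 4.19, still called. Elovl3, an elongase of brown fat, had the same cold library on top, with 0.906, 0.892 and 23.5 CPM against 0.0493, 0.29 and 0.485 CPM (log2 difference 4.93 ± 1.90 (SE), adjusted p = 0.118). Its difference was 1.71 without cold replicate 3, and the call was lost without that library or any single ambient library. Cidea, a droplet protein of brown and beige cells, was at 11.7, 8.21 and 15.8 CPM against 46.1, 38.9 and 72.8 CPM (log2 difference 2.14 ± 0.78 (SE), adjusted p = 0.1), and lost its call without ambient replicate 1, ambient replicate 2 or cold replicate 3. Dio2, the deiodinase that activates thyroid hormone, was at 3.06, 2.12 and 5.01 CPM against 4.38, 3.1 and 9.23 CPM with overlapping groups and was not called (log2 difference 0.71 ± 0.47 (SE), adjusted p = 0.388). Cox7a1, a brown fat form of a cytochrome oxidase subunit, was at 1.82, 2.08 and 4.04 CPM against 2.41, 3.38 and 13.6 CPM, also with overlapping groups and not called (log2 difference 1.28 ± 0.74 (SE), adjusted p = 0.311). The skeletal muscle list, whose fibres also express Cox7a1, was also at its highest in cold replicate 3, at a mean log2 CPM of 7.67 against 3.10 and 4.98 in the other cold libraries. With muscle markers as a covariate, 13 genes of the heat production list were higher and its median was 0.66. The part of muscle in the values of single libraries was not tested. The higher count of the heat production list was 6 without cold replicate 3, where its median was 0.35.

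**Figure D3:**
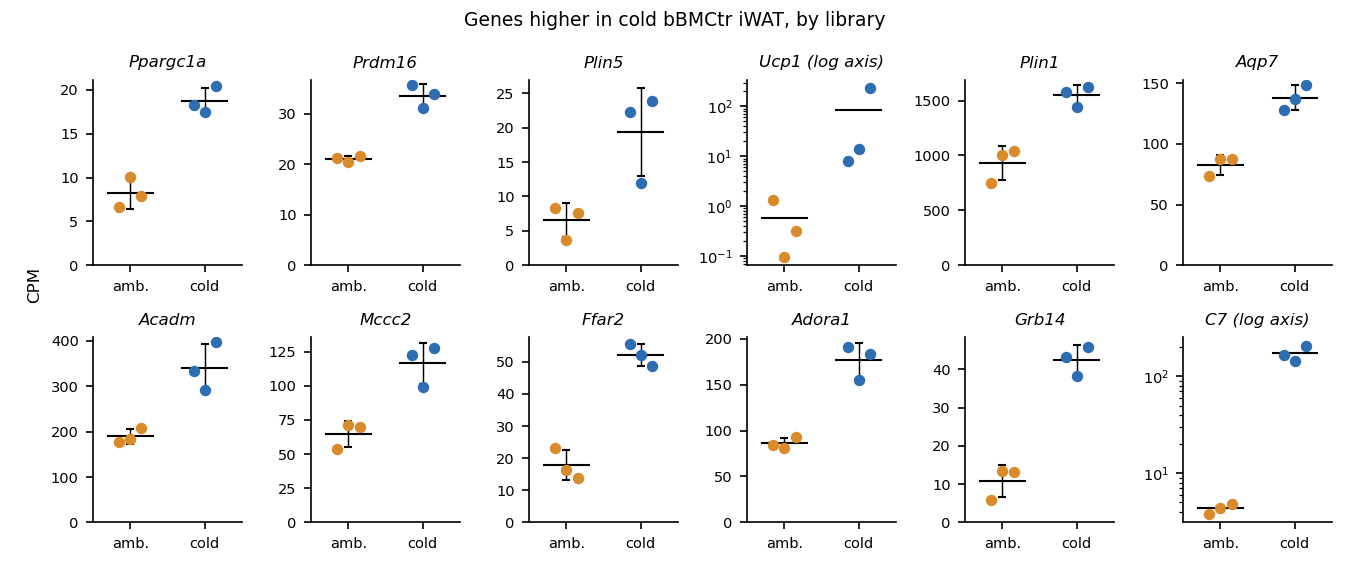
CPM of 12 genes called higher in the cold, in each of 3 ambient (orange) and 3 cold (blue) bBMCtr libraries, with the mean as a bar and the SD as whiskers (none on the log axes of Ucp1 and C7). In each panel the lowest cold library lies above the highest ambient library, and Ucp1 spreads from 7.85 to 229 CPM within the cold group. The panels were picked from called genes, and 2057 of all 2194 called genes had groups apart, against 32.2% of all autosomal genes.

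On the list of lipolysis and lipid droplets, 10 of 23 genes were higher and none lower (median 0.57). Besides Plin1, Lipe and Cidea these were Fitm2, Aqp7, Plin4, Mgll, Plin5, Pnpla2 and Ces1d. Aqp7, the channel through which glycerol leaves the fat cell, was at 73.5, 87.7 and 87.3 CPM in the ambient and 128, 137 and 149 CPM in the cold libraries (log2 difference 0.74 ± 0.13 (SE), adjusted p = 0.00409). Plin5, which tethers droplets to mitochondria, was at 8.33, 3.72 and 7.54 CPM against 22.3, 12 and 23.8 CPM (log2 difference 1.57 ± 0.45 (SE), adjusted p = 0.0408). Aqp7 had tight groups, whereas the cold libraries of Plin5 differed 1.99-fold. Fitm2, an endoplasmic reticulum protein of droplet formation, lost its call without ambient replicate 1 or cold replicate 3. The list's higher count was 5 without ambient replicate 1 and 6 without cold replicate 3. Fatty acid uptake and binding had 5 of 21 genes higher, among them Gpihbp1, Lpl, Fabp4 and Apoc1, and 1 lower, Angptl8, an inhibitor of lipoprotein lipase made when animals are fed. Gpihbp1, which carries lipoprotein lipase across the capillary wall, lost its call without ambient replicate 1 or cold replicate 3. The higher count of that list was 1 without ambient replicate 1 and 3 without cold replicate 3, and the lower count was 2 without ambient replicate 1, 0 without ambient replicate 3 and 2 without cold replicate 1.

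Fatty acid oxidation had 8 of 34 genes higher and 1 lower, and 30 of the 34 had a positive difference (median 0.43). Acadm, the medium-chain acyl-CoA dehydrogenase, was at 176, 184 and 209 CPM in the ambient and 334, 292 and 397 CPM in the cold libraries (log2 difference 0.85 ± 0.19 (SE), adjusted p = 0.0145). Ech1, an auxiliary enzyme for unsaturated fatty acids, was at 161, 169 and 182 CPM against 273, 254 and 313 CPM (log2 difference 0.71 ± 0.12 (SE), adjusted p = 0.00209). The groups were apart for both enzymes. Acot1, a thioesterase that frees fatty acids from coenzyme A, went the other way, from 20.1, 12.9 and 16.4 CPM to 0.604, 0.939 and 0.587 CPM (log2 difference -4.52 ± 0.37 (SE), adjusted p = 2.57e-05), and shares much of its sequence with neighbouring Acot genes, so its counts depend on how such reads were treated. The higher count of the list was 4 without ambient replicate 1 and 4 without cold replicate 3.

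Differences were positive for 73 of 75 subunits of the respiratory chain complexes and ATP synthase, with a median of 0.22, but only Cox8b was called (1.33% of the list). Cox8b, a form of a cytochrome oxidase subunit found in muscle and brown fat, was at 21.6, 15.6 and 29.4 CPM against 43.6, 45.4 and 62.2 CPM (log2 difference 1.18 ± 0.42 (SE), adjusted p = 0.095), and was not called without ambient replicate 2 or cold replicate 3. The list's higher count was 3 without cold replicate 1 and 0 without cold replicate 3. The tricarboxylic acid cycle and pyruvate entry had 1 of 22 genes higher, Idh3a, a subunit of isocitrate dehydrogenase, and 19 positive differences (median 0.38), and its lower count was 1 without cold replicate 2. Its higher count was 2 without ambient replicate 2, 5 without ambient replicate 3, 2 without cold replicate 1 and 3 without cold replicate 2. The breakdown of branched-chain amino acids, which feeds the cycle, had 5 of 21 genes higher and none lower (median 0.48), namely Mccc2, Ivd, Bcat2, Mccc1 and Aldh6a1. Mccc2, a subunit of the carboxylase in leucine breakdown, was at 53.5, 71.2 and 69.6 CPM in the ambient and 123, 99.1 and 127 CPM in the cold libraries (log2 difference 0.85 ± 0.14 (SE), adjusted p = 0.00187). Ivd lost its call without ambient replicate 1 or cold replicate 3, and Mccc1 without ambient replicate 1. The list's higher count was 3 without ambient replicate 1, 9 without ambient replicate 2, 11 without ambient replicate 3, 11 without cold replicate 2 and 3 without cold replicate 3.

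Fatty acid and triglyceride synthesis was mixed, with 2 of 30 genes higher and 6 lower (median -0.17). Elovl7, an elongase, was at 8.92, 14.2 and 14.5 CPM in the ambient and 2.72, 2.82 and 1.76 CPM in the cold libraries (log2 difference -2.36 ± 0.25 (SE), adjusted p = 0.00015). Lpin2, a phosphatidate phosphatase, was at 65.8, 63.2 and 58.1 CPM against 31.5, 36.8 and 28.2 CPM (log2 difference -0.95 ± 0.13 (SE), adjusted p = 0.000601), and Fads2, a desaturase, at 19.4, 32.8 and 50.3 CPM against 12.8, 11.8 and 9.71 CPM (log2 difference -1.58 ± 0.28 (SE), adjusted p = 0.00349). Lpin2 had tight groups, while the ambient libraries of Fads2 differed 2.60-fold. Mogat1, an acyltransferase of triglyceride synthesis, was higher, at 35.8, 27.8 and 35.5 CPM against 11.7, 15 and 19.5 CPM (log2 difference 1.10 ± 0.17 (SE), adjusted p = 0.00163). Fasn, fatty acid synthase, chosen after its values were seen, was at 4599, 9009 and 12807 CPM against 4839, 3773 and 5157 CPM and was not called (log2 difference -0.94 ± 0.45 (SE), adjusted p = 0.215). Its ambient libraries spread 2.78-fold, wider than the difference. Elovl7, Fads2 and Fasn were lowest in ambient replicate 1 and highest in ambient replicate 3, the order of the epithelial markers. The mean log2 CPM of those markers there was 4.73, 5.40 and 5.78. Skeletal muscle (2.12, 6.21 and 7.47) and adipocyte identity genes (9.63, 10.18 and 10.20) rose in that order too, and lymphocyte markers (6.34, 5.06 and 0.977) fell in it. Mogat1, higher in the cold, was also in that order. Here and below, the order is thus not particular to epithelium. The part of epithelium or of other cells in these values was not tested. The list's lower count was 12 without ambient replicate 1, 3 without ambient replicate 3 and 3 without cold replicate 2, and its higher count was 4 without ambient replicate 3. In sterol synthesis 1 of 27 genes, Hmgcs1, was higher and 2, among them Sqle, were lower, with 0 higher without cold replicate 3 and 1 lower without ambient replicate 3 or cold replicate 1. In glucose uptake and glycolysis Pfkfb3, which makes an activator of glycolysis, was higher, and Aldoc, an aldolase, was lower, from 17.1, 24.1 and 36 CPM to 1.06, 2.02 and 1.12 CPM (log2 difference -4.19 ± 0.36 (SE), adjusted p = 3.50e-05), with its ambient libraries in the same order. The higher count of that list of 27 was 2 without ambient replicate 2, 5 without ambient replicate 3 and 3 without cold replicate 2, and the lower count was 2 without ambient replicate 1. Calls made up 11.1% of the sterol list and 7.41% of the glycolysis list, under the 14.7% of all autosomal genes.

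Of 9 receptor genes that restrain lipolysis, 4 were higher and none lower (median 0.52). Ffar2, a receptor for short-chain fatty acids, was at 23.2, 16.5 and 13.9 CPM in the ambient and 55.5, 52.2 and 48.6 CPM in the cold libraries (log2 difference 1.54 ± 0.17 (SE), adjusted p = 0.000197). Adora1, the adenosine A1 receptor, was at 84.3, 80.8 and 93.1 CPM against 191, 155 and 184 CPM (log2 difference 1.04 ± 0.12 (SE), adjusted p = 0.000211). Sucnr1, the succinate receptor, was at 13.1, 19.7 and 18.9 CPM against 28, 33.5 and 30.6 CPM (log2 difference 0.83 ± 0.21 (SE), adjusted p = 0.0224). All cold libraries were above all ambient libraries for the 3 receptors. Hcar2, the receptor for beta-hydroxybutyrate, was called at a log2 difference of 0.60 and lost that call without ambient replicate 2. Without ambient replicate 1, 1 gene of the list was lower. On the list of beta-adrenergic and cAMP signalling, 3 of 35 genes were higher and 2 lower (median 0.07). That is 14.3% of the list, close to the 14.7% called over all autosomal genes. Pde3b, the phosphodiesterase that breaks down cAMP after insulin, was at 254, 282 and 278 CPM against 499, 421 and 539 CPM (log2 difference 0.84 ± 0.16 (SE), adjusted p = 0.00447). Sik1, a kinase gene that cAMP induces, was at 116, 170.3 and 112 CPM against 63.5, 63.9 and 60.8 CPM (log2 difference -1.08 ± 0.15 (SE), adjusted p = 0.000766). Adrb3, the beta-adrenergic receptor of rodent fat cells, chosen after its values were seen, was called at a log2 difference of 0.60, and lost the call when ambient replicate 1, ambient replicate 2, cold replicate 1 or cold replicate 2 was left out. Rgs2, an inhibitor of receptor signalling, had overlapping groups and lost its call without ambient replicate 1, ambient replicate 2, cold replicate 1 or cold replicate 3. Members called higher numbered 5 without ambient replicate 1, and the lower count was 1 without ambient replicate 1, 1 without ambient replicate 2 and 1 without cold replicate 1.

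Promoters are printed for the 4 called fat cell genes of smallest p that hold a searched motif in the 250 bases before their start, to show where such letters lie. The motifs were the CRE (TGACGTCA), the E-box (CACGTG), the ERR element (TCAAGGTCA) and AGAACA, which is only a part of the full glucocorticoid element, each searched on both strands and shown in capitals. The sequences are from RefSeq on GRCm38.p6, read 5′ to 3′ on the strand of the gene, and 70 of the 95 called fat cell genes were in the table used. Acot1 (chr12:84009252-84009501, plus strand) holds AGAACA in reverse. Ffar2 (chr7:30823776-30824025, minus strand) and Lpin2 (chr17:71183282-71183531, plus strand) each hold an E-box. Alpl (chr4:137766476-137766725, minus strand), the alkaline phosphatase of creatine cycling, holds AGAACA in reverse and was lower in the cold, from 18.8, 22.8 and 29.4 CPM to 9.56, 11.3 and 10.2 CPM (log2 difference -1.19 ± 0.16 (SE), adjusted p = 0.000711), its ambient libraries again being in the order of the epithelial markers.
Acot1: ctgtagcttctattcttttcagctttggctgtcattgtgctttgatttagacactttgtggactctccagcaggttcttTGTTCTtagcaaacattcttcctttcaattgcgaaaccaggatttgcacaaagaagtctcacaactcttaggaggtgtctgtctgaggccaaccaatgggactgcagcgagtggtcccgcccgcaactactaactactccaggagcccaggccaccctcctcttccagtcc
Ffar2: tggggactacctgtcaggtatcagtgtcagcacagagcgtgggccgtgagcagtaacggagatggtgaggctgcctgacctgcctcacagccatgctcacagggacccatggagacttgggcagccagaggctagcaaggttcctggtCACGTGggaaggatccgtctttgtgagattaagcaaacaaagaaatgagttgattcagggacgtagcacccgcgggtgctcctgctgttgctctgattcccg
Lpin2: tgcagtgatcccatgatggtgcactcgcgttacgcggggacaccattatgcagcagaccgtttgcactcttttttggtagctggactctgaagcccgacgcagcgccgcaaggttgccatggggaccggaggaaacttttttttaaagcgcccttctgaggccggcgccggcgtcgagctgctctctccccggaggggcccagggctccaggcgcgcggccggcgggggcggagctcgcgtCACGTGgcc
Alpl: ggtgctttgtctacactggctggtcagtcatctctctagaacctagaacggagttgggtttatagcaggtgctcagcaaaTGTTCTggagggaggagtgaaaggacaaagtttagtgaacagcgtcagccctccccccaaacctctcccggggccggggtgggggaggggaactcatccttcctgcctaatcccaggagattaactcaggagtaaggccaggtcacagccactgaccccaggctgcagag
Over 300 bases, from 250 before to 50 after the start, the E-box was in 13.3% of 60 promoters of fat cell genes called higher and AGAACA in 16.7%, against 6.06% and 12.1% of 33 promoters of those called lower. Among 479 promoters of all genes called higher the shares were 7.93% and 11.9%. Among 32851 promoters of all genes they were 7.15% and 19%, and among 14249 promoters of the autosomal genes tested 9.31% and 12.8%. The CRE was in 0 of the 60 promoters and the ERR element in 0 of them, against 2.86% and 0.253% of the promoters of tested autosomal genes.

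Signalling by insulin and growth factors had 3 of 28 genes higher and 3 lower, 21.4% of the list against 14.7% of all autosomal genes. Grb14, an adaptor that inhibits the insulin receptor, was at 5.87, 13.3 and 13.3 CPM in the ambient and 43.2, 38.2 and 45.9 CPM in the cold libraries (log2 difference 1.97 ± 0.30 (SE), adjusted p = 0.0015). Igfbp5, a binding protein of insulin-like growth factors, was at 1514, 2305 and 2270.2 CPM against 1117, 1031 and 1108 CPM (log2 difference -0.90 ± 0.19 (SE), adjusted p = 0.00936). Pik3r1, a regulatory subunit of phosphoinositide 3-kinase, was higher at a log2 difference of 0.64 and lost its call without ambient replicate 1 or cold replicate 3. The number of higher genes was 5 without ambient replicate 2, 5 without ambient replicate 3, 6 without cold replicate 2 and 1 without cold replicate 3. Of 23 secreted factors, Rarres2 (chemerin) and Lep were higher, and Slit2, Fst, Inhbb and Metrnl were lower. Rarres2 was at 110.0, 142 and 138 CPM against 249.6, 238 and 227 CPM (log2 difference 0.87 ± 0.12 (SE), adjusted p = 0.000727), and Slit2 at 11.6, 17.1 and 26.2 CPM against 2.01, 2.77 and 2.72 CPM (log2 difference -2.87 ± 0.27 (SE), adjusted p = 7.40e-05). Fst (follistatin) lost its call without ambient replicate 3, and the higher count of the list was 7 without ambient replicate 2, 6 without ambient replicate 3, 4 without cold replicate 1, 4 without cold replicate 2 and 1 without cold replicate 3. Among 32 transcription factors of fat cells, Prdm16, Rxrg and Klf9 were higher and Klf5, Gata3 and Stat5a lower. Calls made up 18.8% of this list, against 14.7% of all autosomal genes. Gata3, which restrains fat cell formation and is also a luminal mammary factor, was at 52.8, 141 and 187 CPM against 7.5, 10.1 and 6.24 CPM (log2 difference -3.99 ± 0.58 (SE), adjusted p = 0.00108). The ambient libraries of Slit2 and Gata3 were in the order of the epithelial markers, whose part was not tested. Pparg and Cebpa, the core regulators of fat cell formation, differed by 0.53 and 0.54 on the log2 scale with groups apart, under the 1.5-fold minimum. Genes of the list counted as higher numbered 7 without ambient replicate 2, 7 without ambient replicate 3 and 6 without cold replicate 2.

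Clock genes had 2 of 22 members higher and 3 lower (median 0.02), 22.7% of the list against 14.7% of all autosomal genes. Nr1d1 (Rev-erb alpha), a repressor of Bmal1 transcription, was at 119, 126 and 135 CPM in the ambient and 225, 212 and 201 CPM in the cold libraries (log2 difference 0.75 ± 0.12 (SE), adjusted p = 0.00213). Ciart, a repressor of clock output, was at 6.36, 6.37 and 9.53 CPM against 13.1, 12.2 and 14 CPM (log2 difference 0.82 ± 0.16 (SE), adjusted p = 0.00669). Bhlhe41 (Dec2), a repressor, was at 95.3, 185 and 212 CPM against 51.4, 60.6 and 45.7 CPM (log2 difference -1.64 ± 0.31 (SE), adjusted p = 0.00525). Nr1d1 was tight within groups, while Ciart spread 1.5-fold and Bhlhe41 2.22-fold among the ambient libraries. Those of Bhlhe41 were in the order of the epithelial markers, whose part was not tested. Arntl, Per2 and Dbp were not called, at log2 differences of 0.02, -0.25 and 0.31. Glucocorticoid targets and metallothioneins had 3 of 19 genes higher and 2 lower. Fkbp5, a chaperone induced by glucocorticoids, was at 92.1, 82.7 and 76.8 CPM against 235, 118 and 275.6 CPM (log2 difference 1.32 ± 0.29 (SE), adjusted p = 0.0105), and Hsd11b1, which makes active glucocorticoid in fat, at 50.3, 67.7 and 46.4 CPM against 140.2, 108 and 134 CPM (log2 difference 1.22 ± 0.27 (SE), adjusted p = 0.0124). Lcn2, which is on the luminal list as well, was lower, at a log2 difference of -5.56. Members called higher numbered 5 without cold replicate 2, and the lower count 1 without ambient replicate 1. Thyroid hormone signalling had 3 of 11 genes higher, the transporter gene Slc16a10, the receptor gene Tshr and Klf9, with 1 higher without ambient replicate 1. Klf9 had overlapping groups and lost its call without ambient replicate 1, cold replicate 1 or cold replicate 3, and Slc16a10 lost its call without ambient replicate 1. Of 24 cold-inducible and heat shock genes, only Hspa1b and Hspa1a, near-identical copies of an inducible Hsp70 whose reads can be exchanged, were called. That is 8.33% of the list, under the 14.7% of all autosomal genes. Hspa1b was at 15.3, 24.4 and 32 CPM against 3.07, 3.52 and 3.31 CPM (log2 difference -2.85 ± 0.26 (SE), adjusted p = 4.77e-05). Its ambient libraries were also in the order of the epithelial markers, whose part was not tested.

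**Figure D4:**
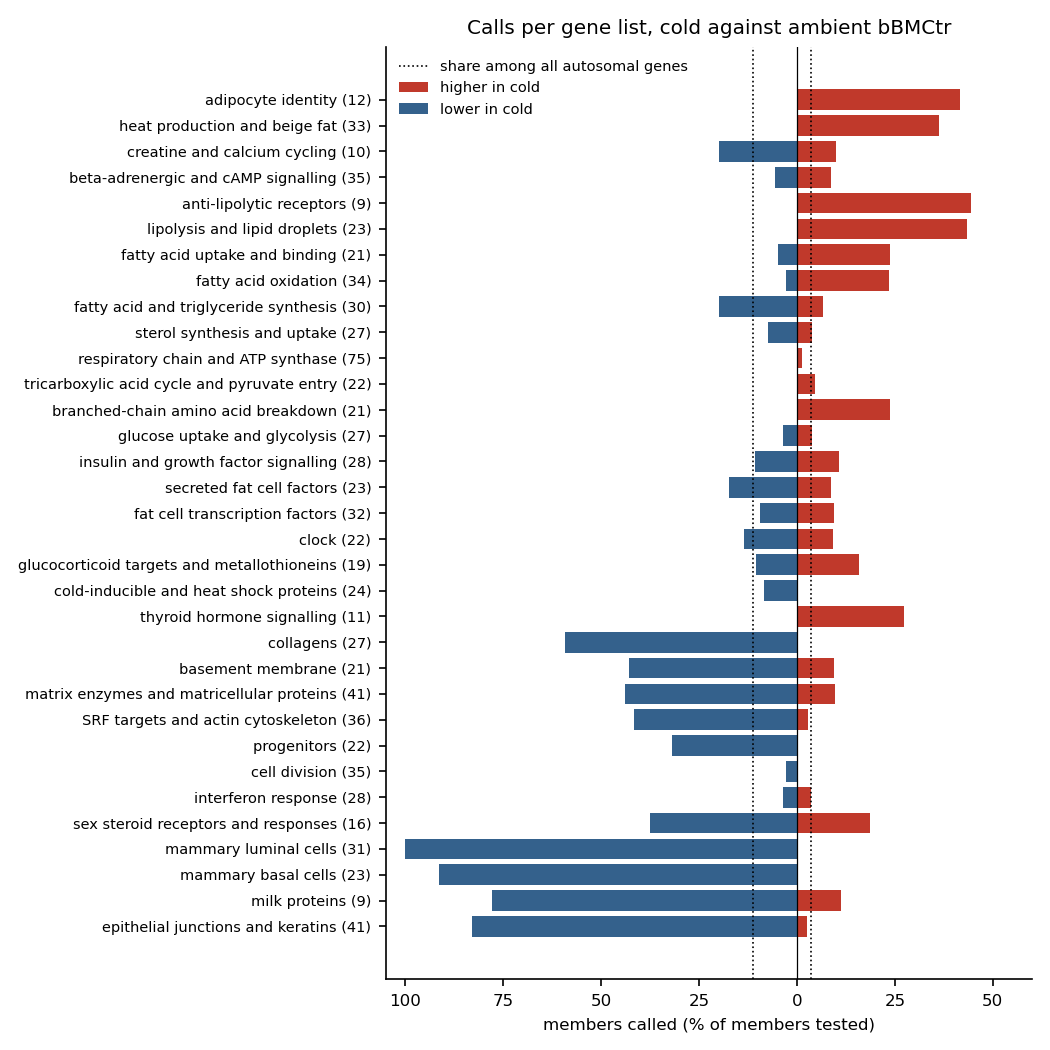
Share of tested members called higher (right) or lower (left) in the cold for each list, with the number tested in brackets and the shares among all autosomal genes, 3.46% and 11.3%, as dotted lines. Lists of fat cell identity, droplets and heat production extend to the right, and those of matrix, actin and above all mammary epithelium to the left.

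Over all autosomal genes, the 12 higher genes of smallest p whose groups did not overlap were Col4a3, Zyg11a, Vat1l, C7, Ccdc3, Serpine2, Med12l, Col4a4, Slc16a7, Ffar2, Adora1 and Fbxo21. C7, a component of the complement membrane attack complex, was at 3.8, 4.34 and 4.85 CPM in the ambient and 168, 145 and 208 CPM in the cold libraries (log2 difference 5.32 ± 0.54 (SE), adjusted p = 0.000113). Col4a3 and Col4a4, chains of a type IV collagen network that share a promoter region, were at 1.23, 1.74 and 1.67 CPM against 8.8, 9.1 and 9.55 CPM (log2 difference 2.56 ± 0.19 (SE), adjusted p = 1.47e-05) and at 3.5, 4.01 and 5.06 CPM against 11.9, 10.9 and 11.4 CPM (log2 difference 1.45 ± 0.16 (SE), adjusted p = 0.000161). Both chains rose, while the 27 genes of the collagen list, which does not hold them, had none higher. Serpine2, an inhibitor of serine proteases, was at 15.8, 24.4 and 25.7 CPM against 82.1, 78.9 and 93.2 CPM (log2 difference 1.95 ± 0.21 (SE), adjusted p = 0.000138). Ccdc3, a secreted protein of fat, was at 48, 55.2 and 65.6 CPM against 118, 107 and 119 CPM (log2 difference 1.03 ± 0.11 (SE), adjusted p = 0.000124). Slc16a7, a transporter of lactate and pyruvate, was at 19.6, 27.5 and 19.7 CPM against 53.8, 48.1 and 61.5 CPM (log2 difference 1.29 ± 0.14 (SE), adjusted p = 0.000168). The log2 differences of the 12 genes ran from 1.03 to 5.32.

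Of 27 collagen genes tested, 16 were lower and none higher (median -0.68), 5 of them by more than 4-fold and 11 by less. Col17a1 and Col7a1, collagens of the junction between epithelium and stroma, went from 26.5, 43.4 and 84.3 CPM to 2.36, 1.27 and 2.13 CPM and from 23.4, 47.4 and 114 CPM to 1.76, 1.6 and 2.29 CPM. Their ambient libraries were in the order of the epithelial list, whose mean log2 CPM was 4.73, 5.40 and 5.78. Without the 1 collagen that is also on an epithelial list, 15 of 26 were lower (median -0.66). The fibrillar collagens Col1a1 and Col3a1, chosen after their values were seen, fell by less. Col1a1 was at 1547, 2088 and 2864 CPM against 959, 964 and 765 CPM (log2 difference -1.27 ± 0.22 (SE), adjusted p = 0.00331), and Col3a1 at 3504, 4858 and 6542 CPM against 2511, 2293 and 2092 CPM (log2 difference -1.11 ± 0.24 (SE), adjusted p = 0.00963). Both had groups apart and the same order of ambient libraries, and the part of epithelium and its stroma in these values was not tested. Without ambient replicate 1, 1 collagen gene was higher.

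Basement membrane genes had 9 of 21 lower and 2 higher, the type IV chains named above. Lama3 and Lamb3, laminin chains of the membrane under stratified and mammary epithelium, were among the lower genes and are on the basal list too, and without members of epithelial lists 6 of 18 were lower (median -0.16). Among 41 matrix enzymes and matricellular proteins, 18 were lower and 4 higher, Lox, Timp4, Adamts5 and Mmp9 (median -0.43). Thbs1, a matricellular glycoprotein, was at 149, 130.4 and 133 CPM in the ambient and 17.9, 22.1 and 19.7 CPM in the cold libraries (log2 difference -2.79 ± 0.22 (SE), adjusted p = 2.18e-05). Lum (lumican), which organises collagen fibrils, was at 218, 314 and 377 CPM against 80.1, 79.5 and 77.9 CPM (log2 difference -1.94 ± 0.19 (SE), adjusted p = 0.000102). Postn (periostin) was at 559, 1290.4 and 1957 CPM against 154, 129.8 and 149.7 CPM (log2 difference -3.14 ± 0.39 (SE), adjusted p = 0.000388). Thbs1 was even among the ambient libraries, whereas Postn spread 3.50-fold among them. Lum and Postn rose over the ambient libraries in the order of the epithelial markers, whose part was not tested.

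**Figure D5:**
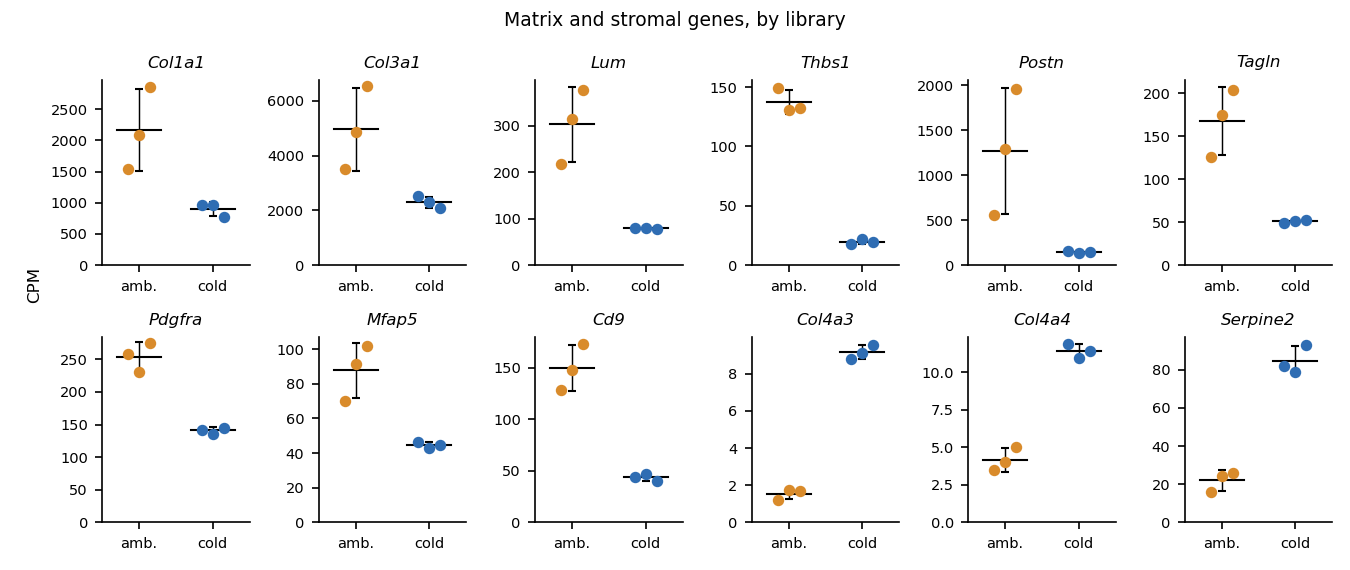
CPM of 12 matrix and stromal genes in each of 3 ambient (orange) and 3 cold (blue) bBMCtr libraries, with the mean as a bar and the SD as whiskers. Col1a1 to Cd9 are lower in every cold library, and Col4a3, Col4a4 and Serpine2 are higher in every cold library. These genes too were picked from called genes, of which 2057 of 2194 had groups apart, against 32.2% of all autosomal genes.

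Serum response factor (SRF) works with coactivators of the MRTF family, which sense free actin, to switch on genes of the actin cytoskeleton and of contractile cells. Srf itself was at 74.1, 74.4 and 63.4 CPM in the ambient and 60.2, 67.2 and 47.9 CPM in the cold libraries, and Mkl1 (MRTF-A) at 81.1, 61.1 and 42.6 CPM against 72.4, 77.1 and 63.4 CPM, and neither was called (log2 difference -0.27 ± 0.13 (SE), adjusted p = 0.22 for Srf, log2 difference 0.20 ± 0.20 (SE), adjusted p = 0.591 for Mkl1). Of 36 SRF targets and actin genes, 15 were lower and 1, the integrin gene Itga1, higher (median -0.53). Tagln, an actin-binding protein of smooth muscle, was at 126, 175 and 204 CPM against 49.2, 51.5 and 52.3 CPM (log2 difference -1.72 ± 0.17 (SE), adjusted p = 8.61e-05). Fhl2, a LIM domain cofactor, was at 6.61, 6.9 and 6.52 CPM against 1.61, 2.49 and 1.65 CPM (log2 difference -1.79 ± 0.21 (SE), adjusted p = 0.000283). Acta2, smooth muscle actin, was at 275, 362 and 541 CPM against 72.1, 86.3 and 83.1 CPM (log2 difference -2.29 ± 0.28 (SE), adjusted p = 0.000326), and Cnn1 (calponin) at 30.9, 42.8 and 65.5 CPM against 1.31, 2.44 and 1.87 CPM (log2 difference -4.62 ± 0.33 (SE), adjusted p = 1.42e-05). Acta2 and Cnn1 are also made by mammary myoepithelial cells, and they were 2 of the 3 genes of the list lower by more than 4-fold. Fhl2 was even among the ambient libraries, unlike Acta2 and Cnn1, which spread 1.97-fold and 2.12-fold in the order of the epithelial list. The ambient libraries of Tagln were in that order too. The part of myoepithelium in these values was not tested.

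Of 22 progenitor genes, 7 were lower and none higher (median -0.45). Pdgfra, the receptor that marks adipose progenitors, was at 258, 230.2 and 275 CPM in the ambient and 142, 136 and 145 CPM in the cold libraries (log2 difference -0.85 ± 0.16 (SE), adjusted p = 0.00519). Mfap5, a microfibril protein of early progenitors, was at 70.2, 91.2 and 102 CPM against 46.4, 43 and 44.9 CPM (log2 difference -0.97 ± 0.16 (SE), adjusted p = 0.00204). Cd9, a tetraspanin of many cell types, was at 129, 148 and 173 CPM against 43.7, 46.6 and 40.5 CPM (log2 difference -1.78 ± 0.15 (SE), adjusted p = 3.50e-05). The cold libraries lay within a narrow range for each of these genes. The ambient libraries of Mfap5 and Cd9, though not of Pdgfra, were in the order of the epithelial markers, whose part was not tested. The number of higher genes was 1 without ambient replicate 3.

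Genes tied to sex steroids held wide differences in both directions. Sult1e1, which inactivates oestrogens by sulfation, had no counts in the ambient libraries and 1754 counts in the cold libraries, at 33.2, 20.3 and 35.3 CPM, at least 581-fold higher against a floor of 3 counts over the group. Pgr, the progesterone receptor, had 4038 counts in the ambient and 2 in the cold libraries (ratio 2031, interval 562 to 16777). Prlr, the prolactin receptor, was at 362, 574 and 673 CPM against 9.61, 10.4 and 15.8 CPM (log2 difference -5.49 ± 0.33 (SE), adjusted p = 5.35e-06). Foxa1, a factor of oestrogen-responsive luminal cells, was at 13.1, 102 and 122 CPM against 0.101, 0.141 and 0.16 CPM (log2 difference -9.15 ± 1.41 (SE), adjusted p = 0.00151), with ambient replicate 1 well below the other ambient libraries. Over the list, 3 of 16 genes were higher and 6 lower (median -0.33), all 6 by more than 4-fold. Prlr and Foxa1 are on the luminal list as well, and without such genes 4 of 14 were lower (median -0.02). The expression of sex-linked genes moved with each of these values, and sex and temperature cannot be told apart.

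No gene of the 14 on the B cell list or the 18 on the T cell list was called, and all 32 had a positive difference. The B cell list summed to 47.2 to 1848 CPM in the ambient and 929 to 1403 CPM in the cold libraries, with the lowest sum in ambient replicate 3. Cd4, a T cell coreceptor, was at 109, 44.1 and 3.88 CPM against 102, 117 and 81.8 CPM. Without ambient replicate 1, 2 of the 14 B cell genes were higher. The muscle list summed to 194 to 6787 CPM in the ambient and 349 to 8733 CPM in the cold libraries, and none of its 24 genes was called. Without ambient replicate 1, 1 muscle gene was lower, and without cold replicate 3, 2 were. Of 22 macrophage genes, Cd9 and Trem2, a receptor of lipid-associated macrophages, were lower, the latter from 7.34, 5.74 and 7.86 CPM to 2.47, 2.11 and 1.97 CPM (log2 difference -1.67 ± 0.46 (SE), adjusted p = 0.0356), and 1 gene was higher without ambient replicate 1. Endothelial genes had Gpihbp1 and Flt4 higher of 22, and 1 without cold replicate 3. The macrophage and endothelial lists each had 9.09% called, under the 14.7% of all autosomal genes. With lymphocyte markers as a covariate 609 genes were higher and 1459 lower, and with muscle markers 680 and 1675.

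In bBMKO mice, sequenced from other animals with the same division of sex-linked and mammary genes between temperatures, 962 genes were higher (6.45%) and 1851 lower (12.4%) in the cold. Of the 516 genes higher in bBMCtr, 350 were higher in bBMKO too, which is 67.83% of the bBMCtr and 36.38% of the bBMKO calls. Of the 1678 lower genes, 1199 were shared, 71.45% and 64.78% of the calls. A test of the difference between genotypes called 117 genes (0.785%), 26 with a higher (0.174%) and 91 with a lower (0.611%) cold effect in bBMKO. That count was 1712 without ambient replicate 1, 53 without ambient replicate 2, 76 without ambient replicate 3, 49 without cold replicate 1 and 51 without cold replicate 2. Of the 19 named genes with such a difference, 9 kept it with any single bBMCtr library left out.

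Some of these 9 are on the epithelial lists and stayed detectable in the cold bBMCtr libraries. Ly6d, a surface protein of luminal and squamous cells, was at 89, 62.8 and 63.5 CPM in ambient and 31.9, 38.7 and 26.6 CPM in cold bBMCtr, and at 108, 84.3 and 113 CPM in ambient and 1.58, 0.517 and 0.832 CPM in cold bBMKO (bBMKO minus bBMCtr cold effect, log2 difference -5.55 ± 0.41 (SE), adjusted p = 0.000449). Dsg2, a desmosomal cadherin, was at 41.6, 45.5 and 56.5 CPM and 10.2, 10.7 and 10.6 CPM in bBMCtr and at 38.7, 32.8 and 46.9 CPM and 0.234, 0.344 and 0.166 CPM in bBMKO (bBMKO minus bBMCtr cold effect, log2 difference -5.10 ± 0.30 (SE), adjusted p = 8.74e-05). For both genes the cold bBMCtr libraries kept a level that no cold bBMKO library reached. The B and T cell lists also differed, at a mean log2 CPM of 5.83, 6.20 and 5.54 in cold bBMCtr. In cold bBMKO that mean was 1.82, 0.476 and 1.11, and the part of lymphocytes in either gene was not tested. Rasef, a GTPase, went the other way, with 1500 counts in the ambient and 2 in the cold bBMCtr libraries (ratio 754, interval 209 to 6236) but 14, 5.28 and 16.8 CPM in cold bBMKO. Cdkn1a, an inhibitor of the cell cycle, fell in cold bBMCtr, from 37, 23.7 and 27.8 CPM to 17.2, 16.9 and 18 CPM, and rose in cold bBMKO, from 143, 201 and 146 CPM to 244, 264 and 289 CPM (bBMKO minus bBMCtr cold effect, log2 difference 1.47 ± 0.24 (SE), adjusted p = 0.0567). Its fall in bBMCtr was not called without ambient replicate 1.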

How the data were processed

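Total RNA of inguinal fat was extracted by the authors and sequenced as mRNA libraries. Per the labels and methods, reads were aligned to mm10 with STAR and counted per gene with HTSeq-count on a GENCODE annotation, and the submitters' processing notes also name DESeq2, edgeR and limma. Tool versions, the GENCODE release and the strand setting were not stated in what was read here, so overlapping and antisense genes cannot be told apart. The deposited tables hold raw counts per gene and log2(FPKM + 0.1), which the authors computed from those counts, and 0 columns of per-sample values were left unmapped.

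From these counts, TMM factors and CPM were computed with edgeR 4.0.16 in R 4.3.3. A gene was kept where its FPKM passed 0.1 in 50% or more of the 12 libraries, 15413 in all, of which 14904 are autosomal. All 4 groups entered edgeR's quasi-likelihood fit, each comparison being a contrast, with Benjamini-Hochberg adjustment over the genes kept. An SE is the size of the difference over the square root of the F statistic of that test. For genes with few counts in a group it can be smaller than counting error alone. CPM are scaled to TMM library sizes. A prior count of 2 was used for log2 CPM, as in the marker means. The log2 differences come from the fit at its default prior count, so those of genes near 0 counts are hardly damped. Lists of genes were described by counts and medians. The members, lists and alternatives were chosen with earlier results of these data known.

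Named genes were the 12 higher and 12 lower called autosomal genes of smallest p whose groups did not overlap and whose higher group averaged at least 1 CPM (lower epithelial list genes apart, predicted genes left out), up to 4 called members of smallest p per list, or the 2 of smallest p where none was called, a fixed set of fat cell, clock and mammary genes, and the 12 largest interactions. Xist and Ddx3y were used to describe the libraries only. Near-identical copies (Hspa1a and Hspa1b, Acot genes, keratins) are uncertain.

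Depth was 17887795 to 20011515 counts per bBMCtr library. Libraries of a group differed by 16.02 to 108.7 in chi-square per gene, so none was a duplicate. On simulated counts for the 15413 genes of the cold and ambient bBMCtr comparison, the test called 26.87% of 67 genes changed 1.5-fold, 65.67% of 67 changed 2-fold and 98.48% of 66 changed 4-fold, and 26 of 15213 unchanged genes. The simulation changed far fewer genes than the 2194 called in the data, so its adjusted p limit was stricter. Its rates therefore do not give the recovery or the false calls of the reported comparison. Ratios with 1 to 3 counts carry exact 95% intervals, which cover counting error only. Alternatives were DESeq2 1.42.0, limma 3.58.1 on log2 FPKM, other size factors, filters and thresholds, the bBMCtr libraries alone, marker covariates, a replicate block and each library left out. Some genes are not reported here.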

Additional observations from a re-analysis of the deposited data

Results flagged for a closer look

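The cold effect of 19 named genes differed between bBMKO and bBMCtr by the interaction term of edgeR's quasi-likelihood test, at the same thresholds as the other calls. Values are the cold effect in bBMKO minus that in bBMCtr, on the log2 scale with the SE. Groups of 3 libraries were not searched for single outlying samples.

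Of these genes, 9 kept the difference with each bBMCtr library left out in turn. The effect was lower in bBMKO for Cdcp1 (-5.23 ± 0.95), Dsc2 (-4.34 ± 0.66), Dscam (-4.07 ± 0.72), Dsg2 (-5.10 ± 0.30), Ggt1 (-5.30 ± 0.91), Ly6d (-5.55 ± 0.41) and Ly6k (-3.82 ± 0.63). It was higher in bBMKO for Cdkn1a (1.47 ± 0.24) and Rasef (7.64 ± 0.91). The other 10 lost it without at least 1 bBMCtr library. Among them the effect was lower in bBMKO for Arg2 (-2.36 ± 0.45), Coch (-4.17 ± 0.94), Col6a4 (-4.29 ± 0.84), Epcam (-2.73 ± 0.61), Lpin2 (-0.86 ± 0.18) and Sidt1 (-3.81 ± 0.81), and higher for Calca (3.67 ± 0.76), Col7a1 (2.71 ± 0.66), Npas2 (1.18 ± 0.27) and Slc5a7 (4.41 ± 0.94). The adjusted p of the 19 genes ran from 8.74e-05 for Dsg2 to 0.246 for Col7a1. The cause of these differences was not tested.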

How the results depend on the processing

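Across the alternatives that kept all 6 libraries, the autosomal genes higher in cold bBMCtr numbered 415 to 680 and those lower 1459 to 1926, against 516 and 1678. With each library left out in turn they numbered 402 to 806 and 1385 to 1862, with 806 reached without ambient replicate 1. Genes whose cold effect differed between genotypes, 117 in the fit reported, numbered 24 at an adjusted p under 0.05 with no fold minimum, 281 by DESeq2, 75 by limma on log2 FPKM, 57 with the replicate block and 77 with lymphocyte markers as a covariate, and 49 to 1712 with a library left out (1712 without ambient replicate 1). The cause was not tested. Of 157 called genes among 179 followed singly, 126 kept their call under all 19 alternatives, 31 lost it in at least 1, 8 others gained one, and none reversed. Of the higher calls 71.32% and of the lower calls 80.45% or more were kept in every alternative that gave a list of calls. The replicate block gave 501 higher and 1659 lower genes. The labels do not say whether replicate numbers pair these libraries. Deviations of libraries with the same number correlated at 0.352, -0.174 and 0.446, and with different numbers at -0.57 to 0.361. These deviations are centred within groups of 3, which ties the values together, so they cannot decide it. The median of all autosomal genes moved by less than 0.1 under each scaling. On simulated counts 26.87% of 1.5-fold changes were called, a size at the fold minimum of the call itself. Far fewer genes changed there than were called in the data, so this rate does not carry over.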

Other observations

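Small lists of other cells and processes are given beside the 14.7% of all autosomal genes called in either direction. Of 35 genes of cell division only Ccnd1, the cyclin that starts the cycle and one that mammary epithelium also makes, was lower, at 143, 128 and 254 CPM in the ambient and 75.9, 87.9 and 63.5 CPM in the cold bBMCtr libraries (log2 difference -1.21 ± 0.23 (SE), adjusted p = 0.00583). Its list had a median log2 difference of 0.00, with 2 lower without ambient replicate 1, 4 lower without cold replicate 2 and 1 higher without ambient replicate 3. Of 28 interferon response genes, Cxcl9, a chemokine that interferon gamma induces, was higher and Oas2, a sensor of double-stranded RNA, was lower. The lower count of that list ran from 0 to 8 with a library left out, the 8 without cold replicate 2, and its higher count from 0 to 2.

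The shares called were 2.86% for cell division, 7.14% for the interferon response, 30.8% for Schwann cells and nerve, 50% for skin and hair and 75% for mesothelium, the last 2 over 6 and 4 genes. Of 13 Schwann cell and nerve genes, 4, among them Sox10, Calca and Ncam1, were lower and none was higher, with 2 lower without ambient replicate 3 or cold replicate 1. Sox10, a factor of glia that mammary basal cells share, was at 34, 60.8 and 91.7 CPM against 4.83, 5.49 and 5.44 CPM (log2 difference -3.56 ± 0.37 (SE), adjusted p = 0.00013). Of 6 skin and hair genes, Krtdap and Dmkn, secreted proteins of the epidermis, were higher, and Tchh, a protein of the hair follicle sheath, was lower. Tchh was at 1.53, 1.88 and 78 CPM against 0.704, 0.282 and 0.373 CPM (log2 difference -5.89 ± 1.47 (SE), adjusted p = 0.0215), so its level rested on ambient replicate 3, without which the difference was -1.88. Of 4 mesothelial genes 3 were lower, one of them Krt19, which is on the luminal list, with 1 lower without ambient replicate 3 or cold replicate 2 and 1 higher without ambient replicate 1 or cold replicate 2.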
